A study of Rattus norvegicus with 11 samples.

Results

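Kupffer cells are the macrophages that live in the sinusoids of the liver. The genes described here are 44 genes listed for these cells and for macrophages and monocytes in general. For each gene, the probe set that carried its symbol alone and was brightest over all arrays was used, and 39 of the 44 genes had such a probe set, among 14217 genes on the array. Timd4, Vsig4, Marco, Msr1 and Spi1 had none and were not analysed here. Liver RNA came from Wistar rats, with 3 control animals (numbers 1, 2 and 9) and 8 animals given mequindox at the high dose (numbers 2, 3, 4, 5, 6, 8, 10 and 11), each on an array of its own. Mequindox is a synthetic quinoxaline antibacterial; the sources used here gave neither the dose by mass nor the days of treatment. The animals were labelled as 9 weeks old, apart from high-dosed animal 8 at 10 weeks. The groups had been picked for arrays with knowledge of metabolite profiles of the liver and of blood chemistry.

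Kupffer cells arise mainly before birth and renew themselves in place. They take up particles, aged red cells and bacterial products from portal blood, and they carry scavenger receptors, complement component C1q and lectins. When they are lost or the liver is injured, monocytes that carry the chemokine receptor Ccr2 enter along a gradient of its ligand Ccl2, and activated cells release cytokines such as interleukin-1 beta and tumour necrosis factor. Whole liver RNA comes mostly from hepatocytes, so a macrophage gene is read here through a mixture. In such bulk samples, a change in the number of macrophages and a change in the RNA of a gene per macrophage cannot be told apart.

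The tissue label was checked against hepatocyte markers. The 14 measured hepatocyte markers summed to between 253932 and 254957 intensity units in controls and between 248728 and 259827 in high-dosed animals. In limma 1 of them rose, the lipoprotein gene Apoa1 (0.35), 1 fell, the asialoglycoprotein receptor gene Asgr1 (-0.18), and 12 did not pass; leaving out control 1 ended both calls (adjusted p = 0.0737 for Apoa1, 0.155 for Asgr1), and leaving out control 9 that of Apoa1 (adjusted p = 0.0659). After median centring Asgr1 did not pass (-0.14, adjusted p = 0.168). Kupffer cells were represented by Clec4f, a lectin restricted to them in rodents, at 5261 units or more in every animal. The median intensity of an array ran from 149 to 186.6. All levels below are deposited intensities on a linear scale. Log2 fold changes are differences of mean log2(intensity + 55.26), high-dosed minus control, which understate the change of dim genes, and folds are on the same scale. A gene was tested if its mean log2 signal was at least 7.40. Of the 39 macrophage genes, 35 were tested and Itgam, Ccr2, Ccl2 and Il10 lay under this filter.

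Of the 35 tested macrophage genes, 3 rose, 0 fell and 32 did not pass (limma, adjusted p below 0.05 over 10714 genes). At an unadjusted p below 0.05 in limma, 17 were higher and 0 lower. The share of all tested genes at that unadjusted p was not counted. Unadjusted counts here and below therefore have no background to be read against. The 3 that rose were the bacterial lipoprotein receptor Tlr2, the receptor kinase Mertk and the mannose receptor Mrc1. They made up 8.57% of the tested macrophage genes, where 7.91% of all tested genes rose and 2.74% fell, so the share that rose was near that of all genes. All 8 high-dosed animals lay above all 3 controls in 5 of the 35 genes (14.3%), against 8.69% of all tested genes, and below them in 0 (3.37% of all tested genes). These 5 were Tlr2, Mertk, Clec4f, Lgmn and Ctsd. Over all 39 genes, tested or not, the log2 fold changes ran from -0.26 to 0.66 with a median of 0.25, 31 above 0 and 8 below, beside a median of -0.003 over all genes on the array.

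**Figure D1:**
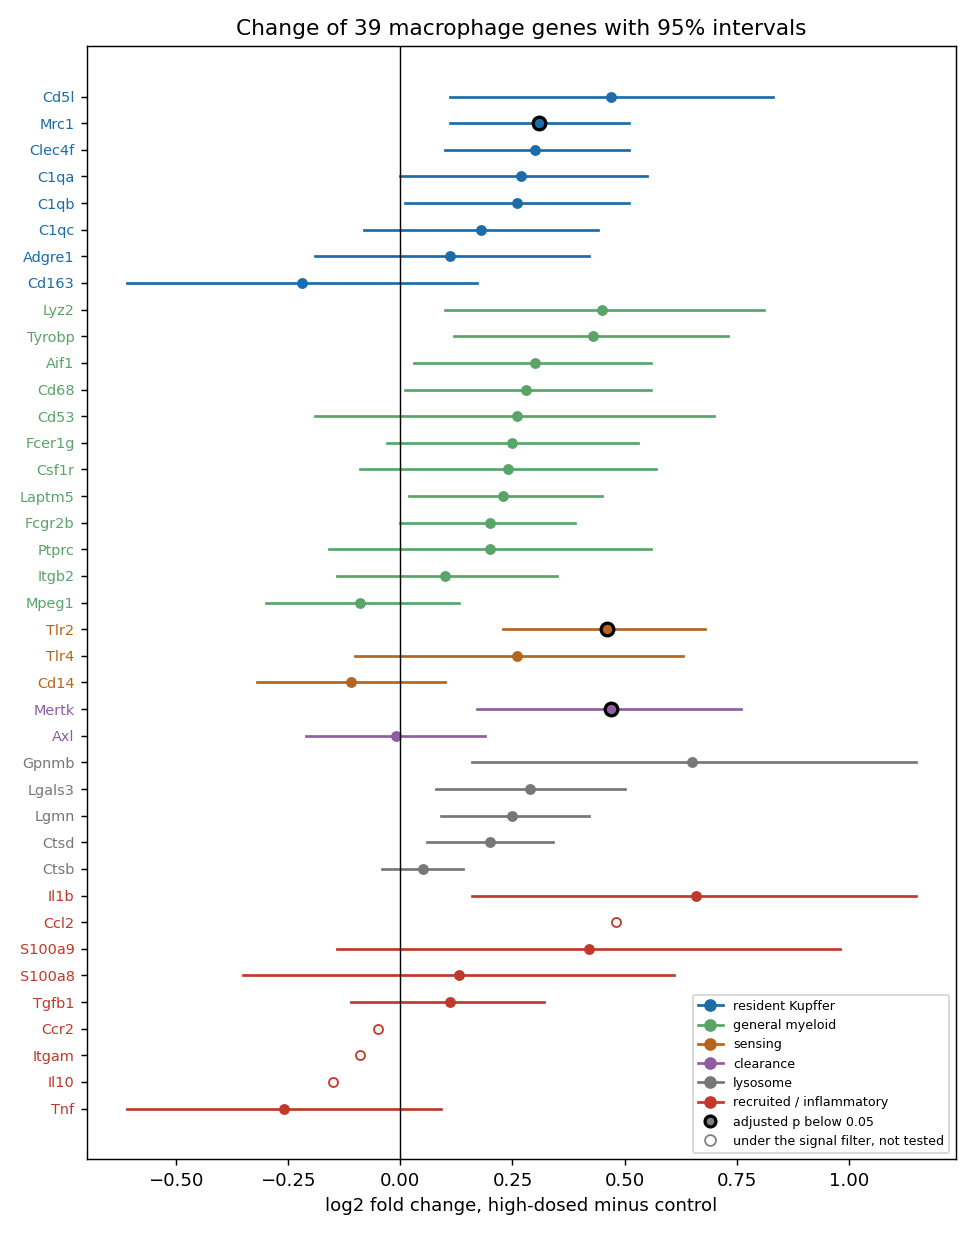
Log2 fold change (horizontal axis, high-dosed minus control) of each of the 39 macrophage genes, coloured and ordered by role, with 95% intervals from the limma fit; open points lay under the signal filter and were not tested. Points with a black rim are Tlr2, Mertk and Mrc1, the genes that rose; most others lie above 0, and Tnf (-0.26) and Cd163 (-0.22) lie lowest.

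These counts leaned on control 1. It held the lowest value of the 11 animals for 22 of the 39 genes, and high-dosed animal 10 held the highest for 18. Without control 1, limma called 0 of the macrophage genes (7 at an unadjusted p below 0.05) and the median log2 fold change over the 39 was 0.10, while over all genes 323 in place of 1141 were called. Of the 39 values, 29 were still above 0 then. Over the other single animals left out, the count of called macrophage genes ran from 1 (without control 9 or high-dosed 4, 6 or 10) to 6 (without high-dosed 2).

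**Figure D2:**
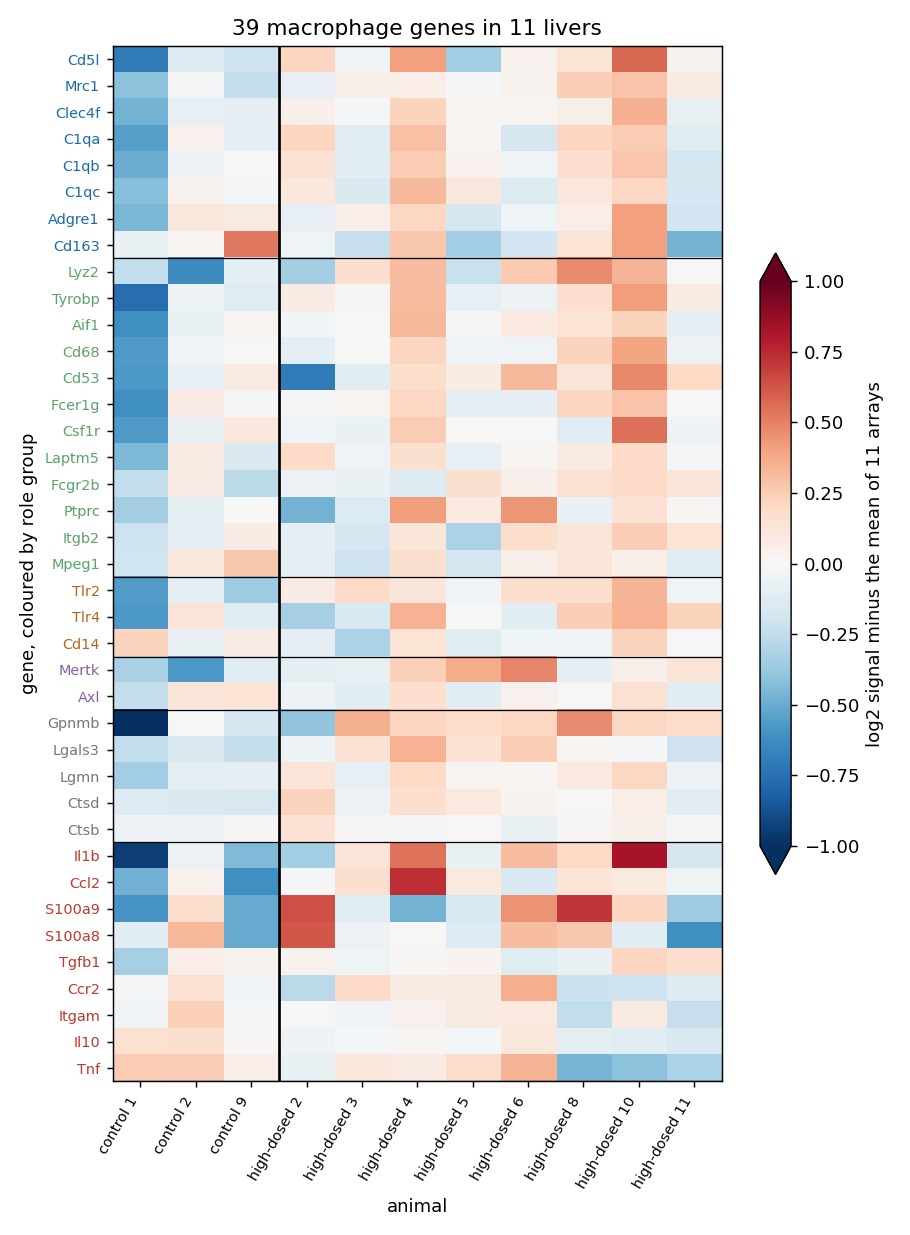
Log2 signal of each macrophage gene (rows, grouped by role) in each animal (columns), minus the mean over the 11 arrays; the colour scale ends at -1 and 1 and the black line divides 3 controls from 8 high-dosed animals. Control 1 is blue in most rows, lowest of all animals in 22, and high-dosed animal 10 is the highest in 18.

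Tlr2, which recognises bacterial lipoproteins and signals through MyD88, had the smallest p of the macrophage genes. Its intensity was 129 in control 1, 198 in control 2 and 156 in control 9, and from 206 (animal 11) over a median of 243 to 287 (animal 10) in the high-dosed animals. Every high-dosed animal lay above every control. The rise was 1.37-fold (log2 fold change 0.46 ± 0.10, SE, 3 controls and 8 high-dosed animals, limma adjusted p = 0.0179). It was 0.43 among animals numbered 6 and below and 0.51 among those numbered 8 and above, where 1 control remained (limma adjusted p = 0.0777 and 0.131). The call was lost without control 1 (0.34, adjusted p = 0.124) or control 9 (0.45, adjusted p = 0.0543).

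Mertk is a receptor kinase with which macrophages bind and clear dying cells. Its intensity was 741, 616 and 861 in controls 1, 2 and 9, and the high-dosed animals ran from 875 (animal 2) over 1007 to 1339 (animal 6). The groups did not overlap, although the lowest high-dosed animals lay close to control 9. The rise was 1.38-fold (0.47 ± 0.13, limma adjusted p = 0.0451). A second, dimmer Mertk probe set, at a mean log2 signal of 7.86, had a log2 fold change of -0.01 ± 0.11. The mean of both probe sets gave 0.23 (adjusted p = 0.233), and the value was 0.63 among animals numbered 6 and below and 0.15 among those numbered 8 and above. The call was lost without control 1 (0.47, adjusted p = 0.153), control 2 (0.35, adjusted p = 0.189) or any of high-dosed 4, 5, 6, 10 and 11 (0.41 to 0.48, adjusted p from 0.0512 to 0.0708), after quantile normalization (adjusted p = 0.0584) and without a filter (adjusted p = 0.0554).

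Mrc1 encodes the mannose receptor, an endocytic lectin of macrophages that sinusoidal endothelial cells of the liver also carry. Controls 1, 2 and 9 had 1987, 2630 and 2252 units, and the high-dosed animals ran from 2515 (animal 2) over 2789 to 3275 (animal 10). High-dosed animal 2 lay under control 2, and the other 7 lay above all controls. The rise was 1.24-fold (0.31 ± 0.091, limma adjusted p = 0.0459). Its call, just past the threshold, was lost without control 1 (0.22, adjusted p = 0.27), control 9 (0.30, adjusted p = 0.116) or any of high-dosed 3, 4, 5, 6, 8, 10 and 11 (0.28 to 0.32, adjusted p from 0.057 to 0.0688). It was also lost after quantile normalization or median centring (highest adjusted p = 0.07), without a filter, without a variance trend, and within animal numbers 6 and below (0.23) or 8 and above (0.44).

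The 250 bases before the start site of the 3 genes that rose and of the complement gene C1qb are shown because transcription factors of macrophages are well described. C1qb itself did not pass in limma (adjusted p = 0.184). PU.1, encoded by Spi1, binds purine-rich sites with the core AGGAAGT, and NF-kappaB, which Toll-like receptors activate, binds the kappaB consensus. Sequences are from RefSeq, build GRCr8, 5′ to 3′ on the gene's strand, with matches to either motif on either strand in capitals.
Tlr2 (chr2:171504558-171504807, minus strand): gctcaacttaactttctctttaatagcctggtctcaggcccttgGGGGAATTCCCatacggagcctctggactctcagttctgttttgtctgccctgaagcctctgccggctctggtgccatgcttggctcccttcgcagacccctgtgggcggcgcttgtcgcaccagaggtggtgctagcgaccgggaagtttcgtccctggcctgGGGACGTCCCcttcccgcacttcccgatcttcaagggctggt
Mertk (chr3:136392324-136392573, plus strand): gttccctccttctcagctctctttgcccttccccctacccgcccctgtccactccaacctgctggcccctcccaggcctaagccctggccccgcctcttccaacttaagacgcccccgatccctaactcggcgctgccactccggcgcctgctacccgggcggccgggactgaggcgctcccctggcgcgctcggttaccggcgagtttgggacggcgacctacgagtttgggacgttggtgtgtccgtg
Mrc1 (chr17:82157475-82157724, plus strand): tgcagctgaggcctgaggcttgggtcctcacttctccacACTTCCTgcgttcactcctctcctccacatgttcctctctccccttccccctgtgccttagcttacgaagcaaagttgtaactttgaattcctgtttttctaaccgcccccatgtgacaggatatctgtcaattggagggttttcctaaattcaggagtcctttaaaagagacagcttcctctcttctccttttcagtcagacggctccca
C1qb (chr5:154407828-154408077, minus strand): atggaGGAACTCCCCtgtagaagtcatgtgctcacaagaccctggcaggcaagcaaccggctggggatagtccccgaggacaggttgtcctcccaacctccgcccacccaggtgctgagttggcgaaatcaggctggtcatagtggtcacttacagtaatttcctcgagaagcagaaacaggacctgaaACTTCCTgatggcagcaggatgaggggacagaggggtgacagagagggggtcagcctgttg
The Tlr2 stretch held matches to the kappaB consensus that begin 206, 205 and 42 bases before the start site, of which the first and the next overlap. The Mrc1 stretch held the PU.1 core on the opposite strand, 211 bases before the start. The C1qb stretch held it there too, 61 bases before the start, and a kappaB match 245 bases before. The Mertk stretch held neither. A promoter was listed for 28 of the 39 macrophage genes. The PU.1 core was present in 7 of these (25%), namely Cd53, Tlr4, C1qb, Lyz2, Ptprc, Mrc1 and Tnf, and in 7.08% of all 33469 promoters. The kappaB consensus was present in 2 of the 28 (7.14%), Tlr2 and C1qb, and in 6.33% of all. Of the 28, only C1qb held both motifs, so its stretch is not typical of them. A match of letters is a description and does not show that a factor binds there.

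Of the 12 genes listed for resident Kupffer cells, 8 were tested, 1 rose (Mrc1), 0 fell (0 lower at an unadjusted p below 0.05) and 7 did not pass. Their median log2 fold change was 0.27, with 7 above 0, and it was 0.10 without control 1. Clec4f, which binds galactose-bearing glycans, had 5261, 6913 and 6828 units in controls 1, 2 and 9, and the high-dosed animals ran from 6992 (animal 11) over 7536 to 9390 (animal 10). The groups did not overlap, but the lowest high-dosed animal stood just above control 2. Its value of 0.30 ± 0.095 did not pass (limma adjusted p = 0.0616), and it was 0.17 without control 1 (adjusted p = 0.364). Cd5l, a secreted protein of macrophages that binds lipids and microbes, had 2527, 3804 and 3584 units in controls. Its high-dosed animals ran from 3248 (animal 5) over 4415 to 6199 (animal 10), 7 of them above all controls. Its value was 0.47 ± 0.17 (limma adjusted p = 0.0905), and it passed without high-dosed 5 (0.54, adjusted p = 0.0438). Without control 1 Cd5l was at 0.29 (adjusted p = 0.448), and the mean of its probe sets gave 0.38 (adjusted p = 0.15). Cd163, the receptor that takes up haemoglobin bound to haptoglobin, did not share this direction. Its controls had 1076, 1136 and 1644 units, and the high-dosed animals ran from 795 (animal 11) over 1031 to 1509 (animal 10). Of the high-dosed animals 4 lay below all controls and 0 above all of them (-0.22 ± 0.18, limma adjusted p = 0.49). Adgre1, which encodes an adhesion G protein-coupled receptor of the macrophage surface, had 494, 758 and 744 units in controls. The high-dosed animals ran from 602 over 701 to 938, astride controls 2 and 9 (0.11 ± 0.14, limma adjusted p = 0.654), and the value was -0.07 without control 1.

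C1qa, C1qb and C1qc encode the chains of C1q, which starts the classical complement pathway and is made largely by macrophages. C1qa had 3373, 5080 and 4643 units in controls 1, 2 and 9, and from 4397 over 5377 to 6070 in high-dosed animals. C1qb had 2552, 3489 and 3618 units in controls, and from 3208 over 3882 to 4404 in high-dosed animals. C1qc had 2870, 3995 and 3826 units in controls, and from 3411 over 4165 to 4862 in high-dosed animals. In each of them control 1 was the lowest animal, and controls 2 and 9 lay within the high-dosed range. The log2 fold changes were 0.27 ± 0.13, 0.26 ± 0.12 and 0.18 ± 0.12 (limma adjusted p from 0.184 to 0.377), and 0.10, 0.10 and 0.03 without control 1.

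**Figure D3:**
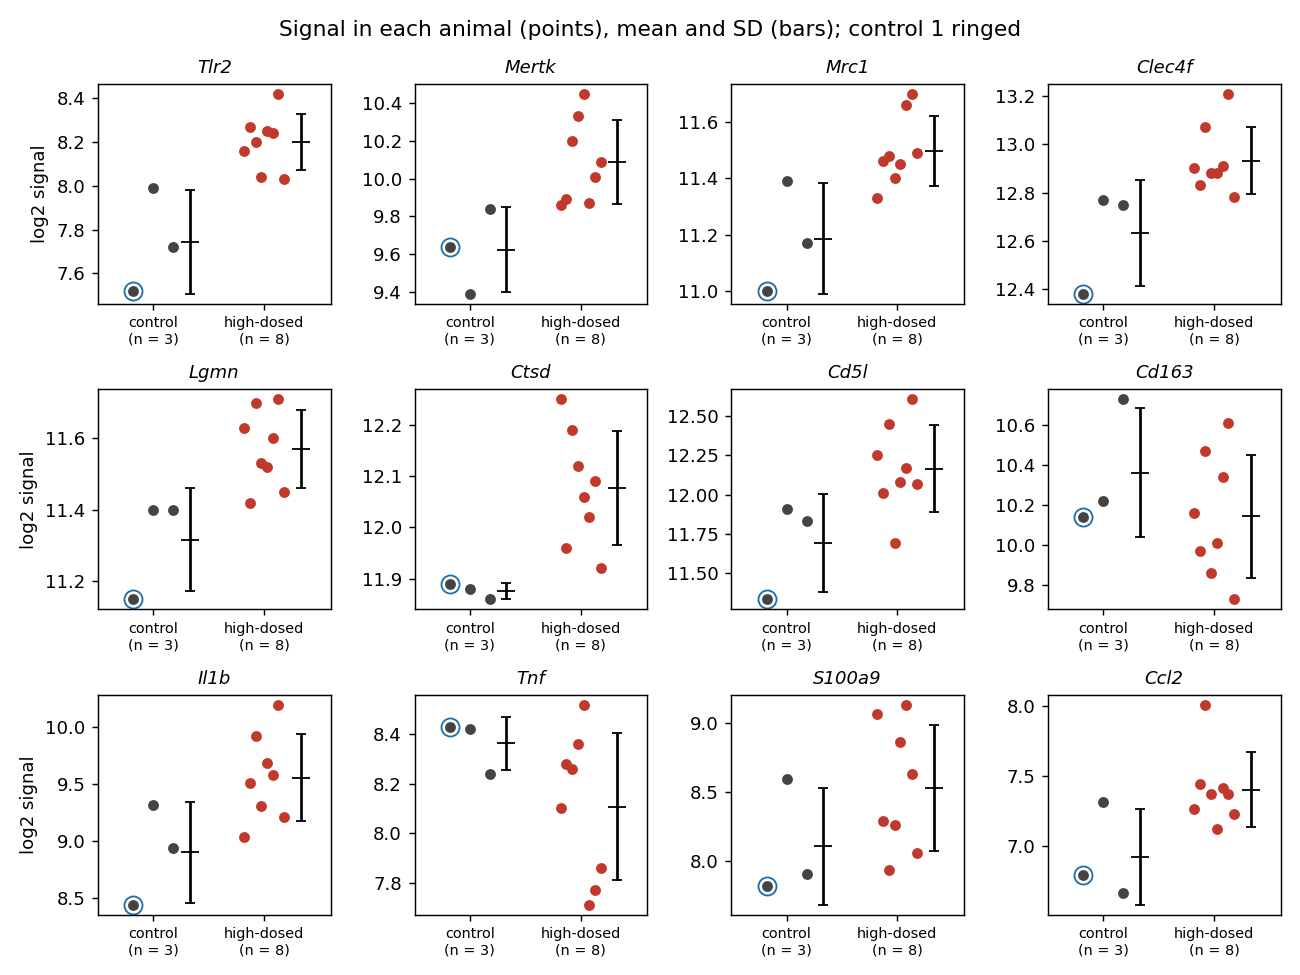
Log2 signal (vertical axis, on its own scale for each gene) of 12 macrophage genes in 3 control and 8 high-dosed animals, with the mean and SD of each group; a blue ring marks control 1. In Tlr2, Mertk, Clec4f, Lgmn and Ctsd the groups do not overlap, while Cd163, Tnf and S100a9 overlap widely.

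Of the 13 general myeloid genes, 12 were tested, 0 rose and 0 fell in limma (6 higher and 0 lower at an unadjusted p below 0.05). Their median log2 fold change was 0.25, 11 were above 0, and the median was 0.10 without control 1. Tyrobp, the adaptor that couples myeloid receptors to Syk, had 1244, 2071 and 1963 units in controls 1, 2 and 9. Its high-dosed animals ran from 2018 (animal 5) over 2265 to 2880 (animal 10), and 6 lay above all controls (0.43 ± 0.14, limma adjusted p = 0.0747). It was 0.20 without control 1 (adjusted p = 0.43). For Lyz2, the lysozyme of macrophages and neutrophils, control 2 rather than control 1 was the lowest animal, at 2278 units. Controls 1 and 9 had 2976 and 3314 units, and the high-dosed animals ran from 2780 (animal 2) over 4143 to 4951 (animal 8). Its value was 0.45 ± 0.16 (limma adjusted p = 0.101), and it passed without high-dosed 2 (0.52, adjusted p = 0.0361). When control 2 was dropped, Lyz2 shrank to 0.30 (limma adjusted p = 0.375). Dropping control 1 or control 9 instead gave 0.49 or 0.57, and Lyz2 passed in neither fit (limma adjusted p = 0.225 and 0.0944). The lysosomal glycoprotein Cd68 (0.28), the growth factor receptor Csf1r (0.24), the actin-binding protein Aif1 (0.30) and the Fc receptor gamma chain Fcer1g (0.25) did not pass (limma adjusted p from 0.152 to 0.352). Without control 1 they were 0.10, 0.05, 0.10 and 0.04. A second Aif1 probe set, under the filter, was at -0.03, and the mean of both gave 0.13 (adjusted p = 0.398). The inhibitory Fc receptor Fcgr2b, which sinusoidal endothelial cells also carry, was at 0.20. Laptm5, a lysosomal membrane protein of blood cells, was at 0.23 and passed without control 2 (0.36, adjusted p = 0.0499). Without control 1 Laptm5 was at 0.10 (adjusted p = 0.69). The leukocyte phosphatase Ptprc (0.20), the integrin chain Itgb2 (0.10) and the tetraspanin Cd53 (0.26) had wider spread among the high-dosed animals than their difference. The pore-forming protein Mpeg1 was at -0.09 ± 0.099, and at 0.02 without control 9.

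Beside Tlr2, the sensing genes Tlr4 and Cd14 did not pass. Cd14 presents lipopolysaccharide to Tlr4. Its controls had 3750, 3043 and 3377 units, and the high-dosed animals ran from 2556 over 3109 to 3734. Control 1 was the highest of the 11 animals for Cd14 (-0.11 ± 0.098, limma adjusted p = 0.519), the only one of the 39 genes in which it was. Tlr4 had 79.1, 163 and 128 units in controls and from 103 over 161 to 200 in high-dosed animals (0.26 ± 0.17, limma adjusted p = 0.367), and 0.07 without control 1. Axl, the relative of Mertk that shares its ligand Gas6, had 1127, 1463 and 1484 units in controls and from 1241 over 1318 to 1519 in high-dosed animals. Its value was -0.01 ± 0.093 with a 95% interval from -0.21 to 0.19, and its sign changed with the scaling (0.03 after median centring).

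The lysosomal and lipid-associated genes were 5, of which 0 passed in limma (4 were higher and 0 lower at an unadjusted p below 0.05). All 5 lay above 0, with a median of 0.25, and of 0.21 without control 1. Lgmn, a lysosomal protease that cuts after asparagine, had 2209, 2652 and 2653 units in controls 1, 2 and 9, and from 2686 (animal 3) over 2978 to 3298 (animal 10) in high-dosed animals. The groups did not overlap, and the value of 0.25 ± 0.077 just missed the threshold (limma adjusted p = 0.0517). It passed with the range of animal numbers (up to 6, or from 8) as a block, with the filter at the 60th percentile and without high-dosed 3 (adjusted p from 0.0444 to 0.0497), and was 0.17 without control 1. A second, dimmer Lgmn probe set was at -0.12 ± 0.15, and the mean of both gave 0.07 (adjusted p = 0.684). Ctsd, the aspartic protease cathepsin D, had 3744, 3724 and 3659 units in controls and from 3807 (animal 11) over 4249 to 4829 (animal 2) in high-dosed animals. The groups did not overlap (0.20 ± 0.066, limma adjusted p = 0.074). Its value was 0.21 without control 1, and it passed without high-dosed 11 (0.22, adjusted p = 0.0462). The cysteine protease Ctsb, bright in all animals, was at 0.05 ± 0.041 with a 95% interval from -0.04 to 0.14.

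Gpnmb, a glycoprotein of lipid-laden macrophages, had 354, 937 and 822 units in controls. High-dosed animals ran from 694 (animal 2) over 1079 to 1318 (animal 8), and 7 of them lay above all controls. The value was 0.65 ± 0.23 (limma adjusted p = 0.0879), 0.26 without control 1 (adjusted p = 0.492), and it passed without control 2 (0.90, adjusted p = 0.0477) or high-dosed 2 (0.74, adjusted p = 0.0412). Lgals3, the lectin galectin-3, had 3004, 3228 and 3024 units in controls, and from 3093 (animal 11) over 3773 to 4565 (animal 4) in high-dosed animals, 7 of them above all controls. Its value was 0.29 ± 0.097 (limma adjusted p = 0.0789) and 0.27 without control 1. It passed after median centring, with the same block and without high-dosed 11 (adjusted p from 0.0179 to 0.035).

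Of the 9 genes listed for recruited monocytes and inflammation, 5 were tested and 0 passed in limma (1 was higher and 0 lower at an unadjusted p below 0.05). Their log2 fold changes went both ways, 5 above 0 and 4 below, with a median of 0.11 that was -0.02 without control 1 and -0.07 without control 9. Il1b encodes the cytokine interleukin-1 beta. Its controls had 292, 584 and 435 units, and the high-dosed animals ran from 472 (animal 2) over 692 to 1121 (animal 10). Of the high-dosed animals 5 lay above all controls (0.66 ± 0.23, limma adjusted p = 0.0852). It was 0.43 without control 1 (adjusted p = 0.42) and passed without high-dosed 2 (0.73, adjusted p = 0.0472). Tnf, the gene of tumour necrosis factor, had 291, 287 and 246 units in controls, and from 154 (animal 8) over 236 to 311 (animal 6) in high-dosed animals. Its 3 lowest values were those of high-dosed animals 8, 10 and 11, at 153.6, 162.5 and 176.7 units, while the others lay between 219.4 and 311.3. The value was -0.26 ± 0.16 (limma adjusted p = 0.35), -0.12 among animals numbered 6 and below and -0.46 among those numbered 8 and above, where 1 control remained (adjusted p = 0.553 and 0.0901). Whether these differ was not tested. A second Tnf probe set, under the filter, was at 0.08 ± 0.07, and the mean of both gave -0.09 (adjusted p = 0.59).

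S100a8 and S100a9 encode the chains of calprotectin, abundant in neutrophils and monocytes. S100a8 had 180, 264 and 124 units in controls, and from 111 over 193 to 334 in high-dosed animals, which spanned all controls (0.13 ± 0.22, limma adjusted p = 0.745, and -0.07 without control 9). S100a9 had 170, 329 and 186 units in controls, and from 191 over 299 to 504 in high-dosed animals, with 4 above all controls (0.42 ± 0.26, limma adjusted p = 0.341). Tgfb1, a cytokine that limits inflammation, was at 0.11 ± 0.10, and at -0.02 without control 1. The 4 genes under the filter had a mean log2 signal under 7.40, and their values have no test. The chemokine Ccl2 had 55.4, 103 and 45.5 units in controls and from 84 over 110 to 202 in high-dosed animals (0.48, and 0.81 with a pseudocount of 1). Its receptor Ccr2 had 84.1, 98.6 and 82.3 units in controls and from 60.7 over 82.4 to 125 in high-dosed animals (-0.05). The integrin chain Itgam (-0.09) lay between 70.5 and 120 units over all animals, and the anti-inflammatory cytokine Il10 (-0.15) between 41.7 and 65.6.

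Set side by side, the 8 resident genes had a median log2 fold change of 0.27 and the 9 recruited and inflammatory genes one of 0.11. The difference was not tested. All 8 resident genes passed the signal filter, while 4 of the 9 others lay under it, where the pseudocount understates changes. With a pseudocount of 1 the medians were 0.27 and 0.15. The 9 also include Il10 and Tgfb1, named above as anti-inflammatory or limiting inflammation. The scores of each animal, as the median over genes of log2 signal minus the mean of the 11 arrays, were set beside these medians. For resident genes they were -0.46 in control 1, 0.00 in control 2 and -0.05 in control 9, and from -0.15 (animal 11) over a median of 0.04 to 0.32 (animal 10) in high-dosed animals. Controls 2 and 9 thus lay inside the high-dosed range and control 1 outside it. For general myeloid genes control 1 was at -0.51, and the high-dosed animals ran from -0.07 to 0.26. For recruited and inflammatory genes control 1 was at -0.11, control 2 at 0.17 and control 9 at -0.02, all inside the high-dosed range of -0.17 to 0.32, and the highest animal was high-dosed 6 rather than 10. For the 5 lysosomal genes the controls, at -0.25, -0.10 and -0.16, all lay below the high-dosed range of -0.05 to 0.20. This was not particular to them among the lists read below. The controls also lay below all high-dosed animals for MHC class II genes (highest control -0.19, lowest high-dosed -0.07) and sinusoidal endothelium (-0.08 and -0.01). Bile duct markers, of which 4 of 6 lay under the filter, did so too (-0.06 and -0.03).

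**Figure D4:**
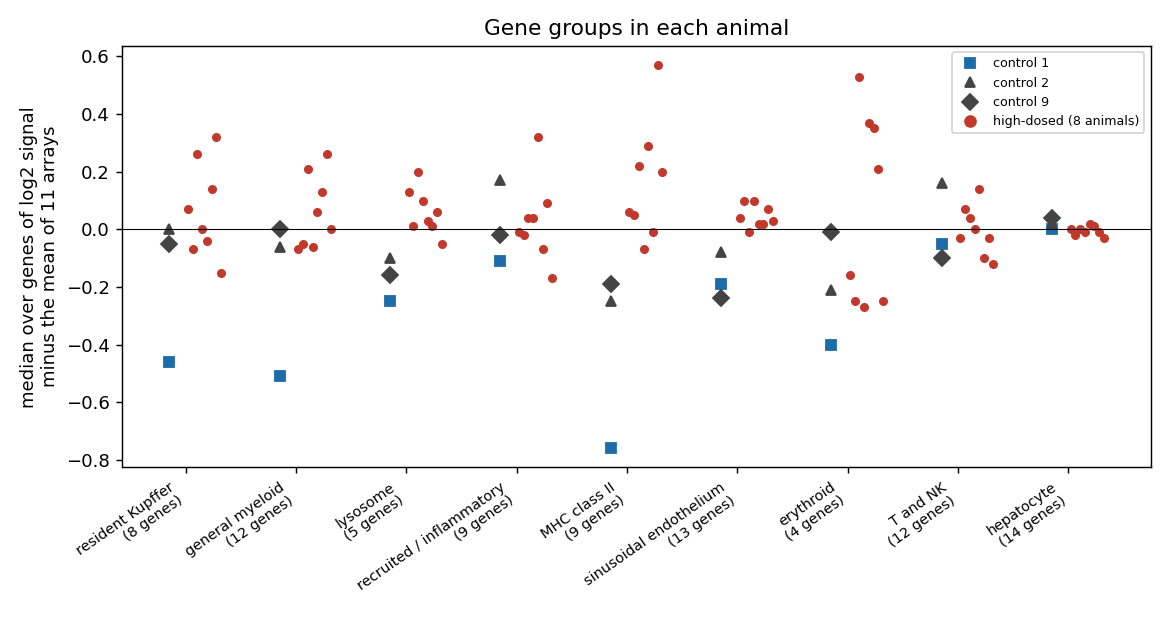
Median over the genes of a group of log2 signal minus the mean of 11 arrays (vertical axis), for each animal, in 4 groups of macrophage genes and 5 lists for other cells or functions. Control 1 (blue square) stands low for resident Kupffer (-0.46), general myeloid (-0.51) and MHC class II genes (-0.76), and at 0.00 for hepatocyte genes.

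Without control 1, 29 of the 35 tested macrophage genes had a smaller log2 fold change in size, and 28 of the 35 were above 0, where 30 had been. Mertk (0.47 in both), Ctsd (0.20 and 0.21) and Lgals3 (0.29 and 0.27) hardly moved, while Gpnmb (0.65 and 0.26), Il1b (0.66 and 0.43) and Tyrobp (0.43 and 0.20) moved more.

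**Figure D5:**
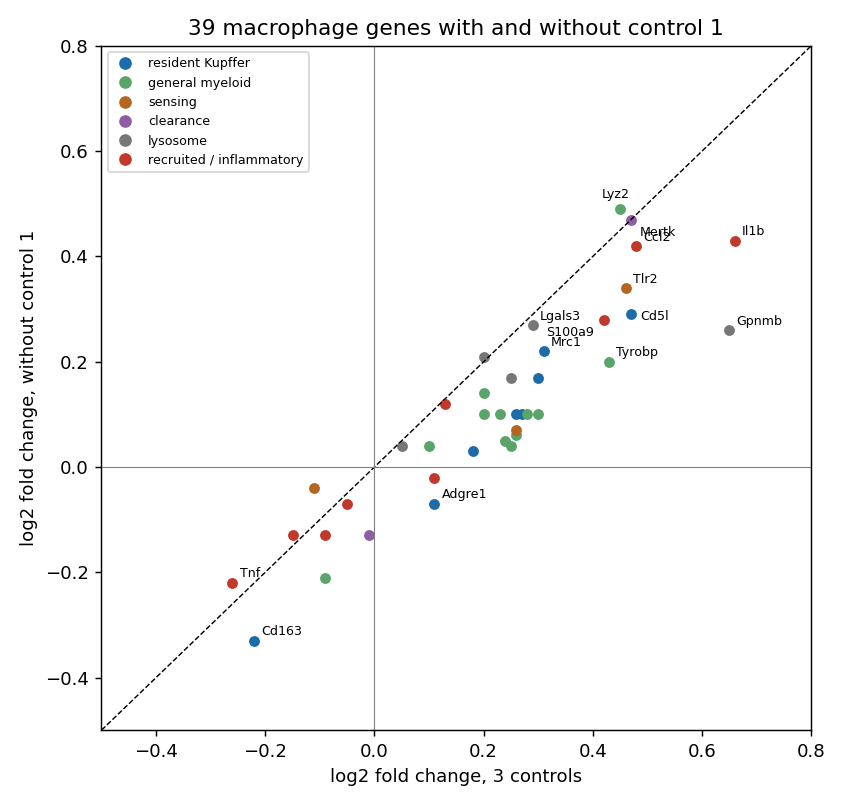
Log2 fold change of each of the 39 macrophage genes with all 3 controls (horizontal axis) and without control 1 (vertical axis), coloured by role; the dashed line marks equal values. Most points lie below the line; Gpnmb moved from 0.65 to 0.26 and Il1b from 0.66 to 0.43, while Mertk stayed at 0.47.

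Among 81 further genes of macrophage biology, 71 were on the array and 63 were tested; 9 rose, 0 fell (1 was lower at an unadjusted p below 0.05) and 54 did not pass. That was 14.3%, against 7.91% of all tested genes. The 9 were the lysosomal protease Ctsl (0.22 ± 0.040), the protease inhibitor Cst3 (0.33 ± 0.067), protein S, encoded by Pros1 (0.23 ± 0.048), and the interleukin-1 receptor Il1r1 (0.49 ± 0.12). The others were the actin regulators Coro1a (0.59 ± 0.14) and Arpc1b (0.33 ± 0.084), the interleukin-10 receptor chain Il10rb (0.31 ± 0.085), the iron exporter Slc40a1 (0.30 ± 0.086) and the NADPH oxidase subunit Cyba (0.38 ± 0.11). Limma adjusted p ran from 0.00625 to 0.0454. Several of them, among them Ctsl, Pros1, Il1r1 and Cst3, are expressed by hepatocytes too. Pros1, a ligand of Mertk, had 5474, 4978 and 5409 units in controls and from 5796 over 6202 to 6605 in high-dosed animals, without overlap. Without control 1 its call held (0.26, adjusted p = 0.0322) and the other 8 were lost (0.19 to 0.41, adjusted p from 0.0501 to 0.263). The call of Coro1a was also lost without control 9 and that of Arpc1b without control 2 (adjusted p = 0.0602 and 0.0823). Those of Il10rb and Slc40a1 were lost without control 9 and without 6 single high-dosed animals each, and that of Cyba without 7 (adjusted p from 0.0507 to 0.132). With the mean of a gene's probe sets, Cyba was at 0.11 (limma adjusted p = 0.519), Il1r1 at 0.24 (adjusted p = 0.092) and Slc40a1 at 0.27 (adjusted p = 0.0786), and their calls were lost. The calls of Slc40a1 and Cyba were also lost after quantile normalization, after median centring and without a filter. That of Slc40a1 was lost without a variance trend as well, and that of Arpc1b after median centring.

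Markers of other cells were read beside these values, and their part in them was not tested. Antigen presentation through MHC class II is shared by macrophages, dendritic cells and B cells. Of its 9 listed genes 6 rose (66.7%, against 7.91% of all tested genes), 3 did not pass and 0 fell. Their summed intensity was 17158, 26128 and 25770 in controls 1, 2 and 9 and from 28956 to 43628 in high-dosed animals, so that control 1 was again the lowest and animal 10 had the highest score. Without control 1, 0 of them passed in limma (6 at an unadjusted p below 0.05), although their median was 0.38. Among 13 markers of sinusoidal and vascular endothelium, 0 fell, 10 did not pass and 3 rose (23.1%, against 7.91% of all tested genes). These were the sialomucin Emcn (0.55 ± 0.10), the adhesion molecule Pecam1 (0.60 ± 0.11) and the hyaluronan receptor Stab2 (0.40 ± 0.10). All 13 markers together summed to between 17017 and 19080 in controls and between 19195 and 21007 in high-dosed animals. Without control 1 the call of Emcn held (0.66), and those of Pecam1 and Stab2 were lost (limma adjusted p = 0.0542 and 0.182). That of Stab2 was also lost without control 9 or high-dosed 5 (limma adjusted p = 0.0796 and 0.0505) and after quantile normalization.

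The lymphocyte and granulocyte lists held few tested genes. Of all tested genes 7.91% rose, so counts of 0 in lists as short as those of this paragraph do not set them apart. Of 12 T and NK cell markers 7 were tested and 0 passed (0 at an unadjusted p below 0.05), with sums from 1705 to 2127 in controls and from 1691 to 2102 in high-dosed animals. All 4 neutrophil markers on the array lay under the filter, with sums from 254 to 318 and from 218 to 310, and of the 3 B cell markers 1 was tested and did not pass. The 5 dendritic cell markers summed to between 1328 and 1637 in controls and between 1134 and 1697 in high-dosed animals, and 0 passed (1 was higher at an unadjusted p below 0.05). The 4 erythroid genes on the array summed to between 8849 and 13272 in controls and between 9769 and 19686 in high-dosed animals, with control 1 the lowest, and 0 of 3 tested passed. Of 11 stellate cell markers 0 passed (1 higher and 1 lower at an unadjusted p below 0.05). The 2 tested markers of bile duct cells included Epcam, which rose (0.83 ± 0.15, limma adjusted p = 0.00544). None of these listed genes or of the 39 macrophage genes had an intensity at or under 1, the lowest value of the file.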

How the data were processed

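Liver RNA of 3 control and 8 high-dosed rats was measured on 11 Affymetrix arrays. The deposited table gave an intensity for each of 31099 probe sets on a linear scale; MAS5 was named without a version in the submitters' processing notes, and neither scaling nor detection calls were stated. Values were used as log2(intensity + 55.26), the pseudocount being the 20th percentile of all values. Genes came from the platform annotation, 1 brightest probe set with a single symbol per gene. The 57 control probe sets were left out, and genes were tested from a mean log2 signal of 7.40 upwards, the 40th percentile. The groups were compared with limma 3.58.1 in R 4.3.3 (linear model, moderated variances that follow signal, Benjamini-Hochberg over 10714 genes, two-sided). The procedure was tried on simulated data with independent noise in each gene and no deviant animal. Such data cannot show how far the calls depend on control 1. The number of arrays limits the precision. The members, lists and tests were chosen with earlier results of these data known. Values by animal were given for called genes, for the 10 with the smallest p and for defining resident and inflammatory genes, and for others where a comparison rested on them. Up to 10 called genes of the further macrophage list and up to 3 of other lists were named. Alternatives covered normalization, pseudocount, filter, variance trend, animal number range (8 and above against 6 and below), probe set choice and single animals left out. Python 3.11.15 drew the plots.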

Additional observations from a re-analysis of the deposited data

Results flagged for a closer look

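In 2 of the 39 macrophage genes, 1 of the 8 high-dosed animals stood far from the others, a different animal in each gene. For Gpnmb, high-dosed animal 2 was low, at a log2 signal of 9.55 against 10.13 in the next animal, a gap of 0.67 of the group's range. For Ccl2, high-dosed animal 4 was high, at 8.01 against 7.44, a gap of 0.65 of the range, in a gene under the signal filter. Chance alone gives such a gap in about 1 in 20 groups, and 39 genes were examined.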

How the results depend on the processing

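No paired analysis was possible because the groups share only animal number 2. Of the 35 tested macrophage genes, 30 kept their direction in all 22 alternatives. The other 5 turned. Alternatives that change only the filter or the variances leave the log2 fold change as it is, so they could not turn a gene. Nor could the mean of a gene's probe sets where a gene had only a single probe set. With single animals left out, Adgre1 ran from -0.07 (without control 1) to 0.21, Tgfb1 from -0.02 (without control 1) to 0.18, Mpeg1 from -0.21 to 0.02 (without control 9), S100a8 from -0.07 (without control 9) to 0.34 and Axl from -0.13 to 0.06. Axl was also at 0.03 after median centring and at 0.05 within animal numbers 6 and below. Called macrophage genes numbered 1 after quantile normalization, without a filter or with the mean of a gene's probe sets, 5 with the range of animal numbers (up to 6, or from 8) as a block, which is no pairing, and 0 within animal numbers 6 and below or 8 and above. With single animals left out they ran from 0 to 6, the median over macrophage genes from 0.10 to 0.31 and that of recruited and inflammatory genes from -0.07 to 0.18. Over the whole array, all genes called numbered 608 within animal numbers 6 and below and 1 within 8 and above, and from 323 (without control 1) to 1408 with single animals left out (758 without control 2). The all genes called higher numbered 405 and 1 within these ranges, and from 244 to 1083 with single animals left out (548 without control 9). The all genes called lower numbered 147 after median centring, 0 within animal numbers 8 and above, and from 79 to 325 with single animals left out (145 without control 2). The split of 847 higher and 294 lower was 590 and 335 after quantile normalization. A fit with variances over all probe sets, added after the data were seen, called 3 macrophage genes and 1054 genes in all. The causes were not tested. Dim genes have no detection call to set a limit.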
